A study of Oryza sativa with 12 samples.

Results

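Gene expression of a pair of near-isogenic rice lines was compared at 28 °C, without heat. The comparison used 6 of the 12 RNA sequencing libraries of the study, chosen by their labels. They were the 3 libraries of NIL-TT2HPS32 (HPS32 below) and the 3 of NIL-TT2HJX (HJX below) kept at 28 °C for 20 h. The RNA of all of them was that of aerial organs, from seedlings 12 days old. HJX is labelled wild type and HPS32 is labelled as loss of function for TT2. The other 6 libraries, 3 of each line held at 42.5 °C for 20 h, were used beside them to see whether a difference at 28 °C was also present in separate libraries. They also entered the choice of genes tested, the scaling and the estimate of the spread. Near-isogenic lines share most of their genome and differ at a selected locus, but other segments of the donor parent can remain. No genotypes were used here, so an effect of TT2 and of any such segment cannot be told apart.

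TT2 is the gene also called GS3, and its product is a gamma subunit of heterotrimeric G proteins. These membrane complexes of an alpha, a beta and a gamma subunit pass signals from the cell surface to the cell interior. In rice the gamma subunits are known for their part in grain size and stress tolerance. The comparison at 28 °C gives the state of the lines without heat, against which their responses to heat are measured.

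The 28 °C libraries held 15559263 to 17871972 reads assigned to genes, and 25473 genes had enough reads for a test. Whether the 3 libraries of a group stand for separate plants is not stated in the labels, so the p-values measure only the spread between these libraries, which may be technical. Nor is it stated whether the reads kept their strand, so where genes overlap on opposite strands their reads cannot be assigned. Ribosomal RNA genes took 0.145% to 0.181% of the reads in HJX and 0.0701% to 0.132% in HPS32, and mitochondrial genes 0.000321% to 0.000375% and 0.000193% to 0.00022%. These shares moved with the lines, and their part in the results below was not tested.

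The lines were close to each other at 28 °C. With edgeR's quasi-likelihood test, 22 of 25473 genes (0.0864%) passed an adjusted p of 0.05, 11 of them higher in HPS32 (0.0432%) and 11 lower (0.0432%). In the 20172 genes with a mean log2 CPM (read counts scaled to a common library size) of at least 1, the median size of the log2 difference was 0.094 and the 95th percentile 0.383. A difference of at least 2-fold was fitted for 46 of these genes (0.228%). Of the 22 genes that passed, 12 differed by at least 2-fold, 7 higher and 5 lower in HPS32. At an unadjusted p under 0.05 there were 1665 genes (6.54%), and the replicates of the lines did not overlap in 2636 genes (10.3%). When the replicate number entered the fit as a block, 66 genes passed (0.259%), 40 higher and 26 lower, and all 22 were among them. The authors' deposited table calls 40 genes at the same threshold, 14 higher and 26 lower in HPS32. These 40 hold 19 of the 22. On simulated libraries of the same depth and number, with 25473 genes, the test recovered 70% of 100 genes changed by 2-fold. It recovered 92% of 100 changed by 4-fold. The changed genes were drawn only from those above a minimum expected count, and no shared effect of the replicate number was simulated. These shares therefore do not cover genes with few reads. More genes were changed in the simulation than the 22 that passed here. The adjustment of p is laxer where more genes change, so the shares may not hold for these lines.

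**Figure D1:**
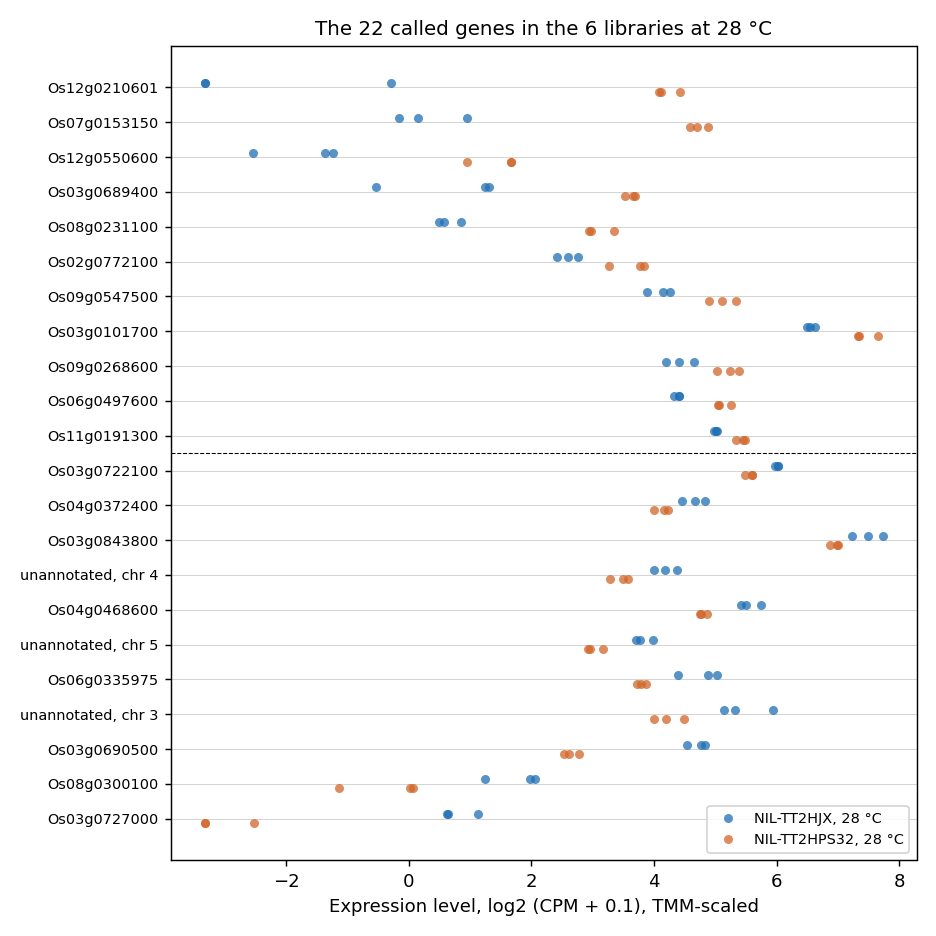
Expression level, as log2 of TMM-scaled CPM plus 0.1, of the 22 genes that passed the test, in each of the 6 libraries at 28 °C; each point is 1 library, and the dashed line separates genes higher in NIL-TT2HPS32 from genes lower in it. The points of the lines do not overlap in any of the 22 genes, beside 10.3% of all tested genes. The test that chose the 22 favours such genes. Os12g0210601 and Os03g0727000 (OSH1) lie at or near 0 reads in 1 line.

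Among the 22 genes are chromatin, transcription and DNA repair factors, enzymes, an immune receptor-type gene and sequences with domains of mobile elements. Because so few passed, all 22 are named. The rule for named genes took 12 of them, by the size of the change among described genes with a mean log2 CPM of at least 1, or by the size of the difference in CPM. OSH1 was taken by the rule for lists and windows. The others were named after their values were seen. The deposited table describes no domain for 9 of the 22, and 3 are transcripts the authors added to the annotation. These 3 are called unannotated and given by chromosome and start. Coordinates are those of the deposited table, whose genome build is not given in the sources used here.

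The gene with the smallest p was Os03g0690500, which encodes an enzyme of the 2-oxoglutarate and iron dependent dioxygenase family. Enzymes of this family oxidise small molecules, several plant hormones among them. It lies on chromosome 3 from 27580909 to 27582211. Its level was 23.2, 27.03 and 28.5 CPM in the HJX libraries and 5.71, 6.05 and 6.76 CPM in the HPS32 libraries. Every HPS32 library was low, and the 3 of each line lay close together. HPS32 was lower, by 4.25-fold (log2 -2.09 ± 0.13 SE, n = 3 per line, adjusted p = 5.48e-08). Under heat HPS32 was lower again, with 5.67 to 6.36 CPM against 12.8 to 15.8 in HJX (log2 -1.30 ± 0.13, adjusted p = 1.57e-07).

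In the same stretch, on chromosome 3 from 27517768 to 27521337, lies Os03g0689400. It carries an NB-ARC domain, the nucleotide-binding part of plant intracellular immune receptors. It was read at 2.26, 0.588 and 2.39 CPM in HJX and at 12.4, 11.5 and 12.7 CPM in HPS32. The HPS32 libraries agreed closely, and HJX replicate 2 was the lowest of all. HPS32 was 7.10-fold higher (log2 2.83 ± 0.26, adjusted p = 4.28e-05), and under heat it was higher too (log2 1.96 ± 0.21, adjusted p = 1.38e-06). The gene overlaps Os03g0689544 on the opposite strand, so its reads cannot be assigned with certainty. Its call was lost in a fit of the 6 libraries at 28 °C alone (adjusted p = 0.0777) and kept in the other 14 alternatives.

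Os03g0101700, of the SNF2 helicase family, lies near the other end of the chromosome, from 125350 to 132708. SNF2-type proteins use ATP to move or remodel nucleosomes. It had the largest difference in CPM of the genes higher in HPS32: 93.0, 89.6 and 98.1 CPM in HJX and 201, 162 and 161 CPM in HPS32. HPS32 replicate 1 was the highest, and the lowest HPS32 library lay well above the highest of HJX. The difference was 1.87-fold (log2 0.90 ± 0.09, adjusted p = 2.17e-05). Under heat it was smaller, 70.7 ± 3.41 (SD) against 63.2 ± 4.66 CPM, with an adjusted p of 0.14 between the lines. The 2 differences were themselves unequal (interaction log2 -0.74 ± 0.12, adjusted p = 0.000155).

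Os09g0547500 belongs to the family described as possible lysine decarboxylases, which holds the LOG enzymes that release active cytokinins, hormones of cell division. Its level was 17.6, 19.1 and 14.7 CPM in HJX and 40.5, 29.8 and 34.4 CPM in HPS32. HPS32 was 2.04-fold higher (log2 1.03 ± 0.14, adjusted p = 0.0038). Under heat the levels of both lines were lower and the gap wider, 5.85 ± 1.42 CPM in HJX and 21.8 ± 1.24 in HPS32 (log2 1.90 ± 0.16). The interaction passed (log2 0.88 ± 0.21, adjusted p = 0.00413).

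Of the genes with no domain description, 3 shared this stability. Os08g0231100, on chromosome 8 from 7991097 to 7993729, rose from 1.38, 1.70 and 1.30 CPM in HJX to 10.03, 7.76 and 7.54 CPM in HPS32 (log2 2.52 ± 0.24, adjusted p = 2.17e-05). Os06g0497600 was at 20.0, 21.1 and 21.0 CPM in HJX and at 33.3, 32.9 and 38.0 CPM in HPS32 (log2 0.75 ± 0.11, adjusted p = 0.00577). Os04g0468600 was lower, with 42.5, 53.2 and 45.3 CPM in HJX and 27.1, 29.1 and 26.8 CPM in HPS32 (log2 -0.77 ± 0.10, adjusted p = 0.00206). In each of the 3 the lines lay apart by more than the spread of their replicates. Together with Os03g0690500, Os03g0101700 and Os09g0547500 these 3 were the 6 genes that passed in all 15 alternative fits.

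A few genes were close to unread in HJX and well read in HPS32. Os12g0210601, with no description, on chromosome 12 from 5786606 to 5786966, had 0, 0 and 10 reads in HJX and 234, 235 and 302 in HPS32. All 10 reads of HJX came from replicate 3. The mean levels were 0.241 ± 0.417 and 18.4 ± 2.51 CPM (SD, n = 3, adjusted p = 0.0013), and the lines differed likewise under heat (0.0799 ± 0.0966 and 6.57 ± 1.32 CPM). This call was lost in the fit of the 6 libraries alone (adjusted p = 0.188), and the authors' deposited table does not call the gene (adjusted p = 0.144).

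Os07g0153150, also without a description, on chromosome 7 from 2806936 to 2815086, had 11, 28 and 14 reads in HJX and 353, 414 and 338 in HPS32. Its HPS32 libraries were all more than 10-fold above the highest of HJX in CPM (23.8 to 29.5 against 0.801 to 1.83), and HPS32 was 21.3-fold higher on average (log2 4.41 ± 0.48, adjusted p = 0.0153). The call was lost without HJX replicate 1, 2 or 3 or without HPS32 replicate 2 (adjusted p = 0.0541 to 0.0956). Under heat the line difference was of the same size (log2 4.73 ± 0.52, adjusted p = 5.74e-05).

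Os12g0550600, on chromosome 12 from 22283176 to 22284740, carries the C-terminal domain found in NAM-associated plant proteins. It had 1, 5 and 4 reads in HJX and 42, 43 and 26 in HPS32 (log2 3.47 ± 0.53, adjusted p = 0.0078, and 0.0814 without HPS32 replicate 2 and 0.0547 with limma-voom). The nearby unannotated transcript that starts at 22287875 was also read mostly in HPS32, at 3.08, 1.78 and 1.90 CPM against 0.583, 0.196 and 0.289. It passed with the replicate block (log2 2.67 ± 0.51, adjusted p = 0.0198) and not without it (adjusted p = 0.102).

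The other 3 rises were smaller. Os11g0191300 carries BRCT domains, which occur in DNA repair proteins, and was at 31.2, 32.0 and 32.6 CPM in HJX and 40.4, 43.5 and 44.6 CPM in HPS32 (log2 0.42 ± 0.08, adjusted p = 0.0329). Os09g0268600 carries the domains of a MuDR-type transposase, the enzyme that moves one class of DNA transposon, and was at 21.2, 18.2 and 25.1 CPM in HJX and 32.7, 37.7 and 41.7 CPM in HPS32 (log2 0.80 ± 0.13, adjusted p = 0.017). Os02g0772100, with no description, rose by 1.07 ± 0.19 on the log2 scale (adjusted p = 0.0329). It overlaps Os02g0772150 on the opposite strand. Each of these calls depended on which libraries were used. That of Os11g0191300 was lost when any library other than HPS32 replicate 1 was left out (adjusted p = 0.0778 to 0.169), as was that of Os02g0772100 (0.0582 to 0.235). That of Os09g0268600 was lost without HJX replicate 1 or 2 or HPS32 replicate 2 or 3 (0.0527 to 0.153). In the fit of the 6 libraries alone all 3 calls were lost (adjusted p = 0.226, 0.0814 and 0.0617, in the order just given), and with limma-voom the first 2 (0.0547 and 0.0746). Os11g0191300 also lost its call with the block in the 6 libraries alone (0.0509).

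Genes lower in HPS32 included Os03g0722100, with the region found next to SWIRM domains in chromatin remodelling subunits. It was at 62.8, 64.8 and 64.6 CPM in HJX and 44.8, 48.4 and 48.4 CPM in HPS32. The replicates of each line differed little, and the fall was small (log2 -0.44 ± 0.08, adjusted p = 0.0293). Under heat the difference was the same to 2 decimals (log2 -0.44 ± 0.08, adjusted p = 0.000124). The call at 28 °C was lost when any library other than HJX replicate 1 was left out (adjusted p = 0.0908 to 0.129), and with limma-voom (0.0562) or the 6 libraries alone (0.0834).

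Os03g0843800, of the thiopurine S-methyltransferase family, had the highest level per transcript length of the 22 genes, 176 FPKM in HJX and 121 in HPS32 (the authors' deposited values, which are scaled for transcript length and depth). Its level was 180, 149 and 212 CPM in HJX and 127, 117 and 128 CPM in HPS32, so the lines lay apart while the HJX libraries were widely spread (log2 -0.54 ± 0.10, adjusted p = 0.0329). The call was lost when any library other than HJX replicate 2 was left out (adjusted p = 0.0935 to 0.235), and with total-count scaling (0.0592), limma-voom (0.0788) or the 6 libraries alone (0.307). Under heat the gene was near 0 in both lines, at 0.262 to 0.312 CPM in HJX and 0.0533 to 0.155 in HPS32.

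The unannotated transcript of chromosome 4 that starts at 19042625 resembles the MADS-box transcription factor AGL21 of Arabidopsis, per the deposited description. It was at 17.99, 15.9 and 20.6 CPM in HJX and 9.60, 11.2 and 11.8 CPM in HPS32 (log2 -0.74 ± 0.12, adjusted p = 0.0206). This call was lost without HJX replicate 3 or HPS32 replicate 1 or 2 (adjusted p = 0.105 to 0.118), and with limma-voom (0.0547) or the 6 libraries alone (0.133). Under heat the lines overlapped in level, at 12.3 to 13.5 CPM in HJX and 13.1 to 14.2 in HPS32, and the interaction passed (log2 0.83 ± 0.17, adjusted p = 0.00127).

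A pair of the falling genes carry domains of mobile elements. The unannotated transcript of chromosome 3 that starts at 14019375 resembles the Pol polyprotein of a retrotransposon, an element that copies itself through RNA. It was at 35.2, 40.0 and 61.6 CPM in HJX and 15.9, 22.3 and 18.2 CPM in HPS32, with HJX replicate 3 well above the others (log2 -1.28 ± 0.19, adjusted p = 0.0329). The call was lost without HJX replicate 2 or without any 1 of the HPS32 libraries (adjusted p = 0.051 to 0.203), and with total-count scaling (0.0592), no filter (0.0563) or the 6 libraries alone (0.659). Os08g0300100, with the helicase-like domain of Helitrons, a class of DNA transposon, was at 2.26, 3.85 and 4.05 CPM in HJX and 0.952, 0.356 and 0.916 CPM in HPS32 (log2 -2.18 ± 0.40, adjusted p = 0.0329). Its call was lost when any library other than HJX replicate 1 was left out (adjusted p = 0.0711 to 0.235), and with limma-voom (0.126) or the 6 libraries alone (0.0907). Copies of such elements elsewhere in the genome can share reads, so these counts are uncertain.

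The other 3 falling genes have no domain description. Os04g0372400 (log2 -0.54 ± 0.10, adjusted p = 0.0369) and Os06g0335975 (log2 -1.01 ± 0.19, adjusted p = 0.0492) lost their calls when 1 of 5 libraries was left out, with adjusted p of 0.0546 to 0.247 and 0.162 to 0.308. The exceptions were HJX replicate 3 for Os04g0372400 and HJX replicate 1 for Os06g0335975. Os04g0372400 also lost its call with limma-voom (0.149) and in the 6 libraries alone (0.385), and Os06g0335975 with RLE scaling (0.0503), total counts (0.0598) and the stricter filter (0.0533). The unannotated transcript of chromosome 5 that starts at 20148460 fell by 0.81 ± 0.15 on the log2 scale (adjusted p = 0.0329), and without HJX replicate 1 or 2 or HPS32 replicate 2 or 3 the adjusted p was 0.0554 to 0.199. With limma-voom it was 0.0527 and in the 6 libraries alone 0.0942.

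OSH1 (Os03g0727000, chromosome 3, 29596367 to 29606861) had the fewest reads of the 22. It encodes a class I KNOX homeobox factor, known for keeping shoot meristem cells undifferentiated. The HJX libraries held 20, 32 and 20 reads and the HPS32 libraries 1, 0 and 0. Every HJX library was above every HPS32 library, and the ratio of the summed reads, scaled for depth, was 70.3 with an exact 95% interval of 12.2 to 2820 for counting error only (adjusted p = 0.01 in the fit). The call was lost without HJX replicate 2 (adjusted p = 0.061) or HPS32 replicate 2 (0.117) or 3 (0.101).

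Its relatives in the meristem list had few reads. OSH15 (Os07g0129700) had 18, 31 and 4 reads in HJX and 0, 0 and 0 in HPS32, at least 5.62-fold lower in HPS32 against a floor of 3 counts per library. OSH6 (Os01g0302500) had 1, 2 and 6 reads in HJX and 0, 0 and 0 in HPS32. Neither had enough reads for the test. OSH71 (Os05g0129700) had 25, 14 and 16 reads against 1, 6 and 13 and did not pass (log2 -1.42 ± 0.55, adjusted p = 0.666). A further KNOX gene, Os03g0727200, next to OSH1 on chromosome 3 from 29626761, had 5, 1 and 5 reads in HJX and 0, 0 and 0 in HPS32. Of other KNOX genes with few reads, Os03g0772100 had 0, 5 and 0 reads in HJX and 3, 1 and 3 in HPS32, Os03g0771500 had 0, 3 and 2 against 1, 1 and 0, and Os03g0673500 had 0, 0 and 0 against 1, 0 and 0. These 4 genes were chosen after their values were seen.

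Summed over the 4 genes of the list, the level was 3.33 to 5.16 CPM in HJX and 0.147 to 0.916 CPM in HPS32, and 1 of 2 tested members passed. Fewer meristem cells in a sample and less RNA of these genes per cell cannot be told apart in such libraries. Under heat OSH1 and OSH15 had 0 to 3 reads in every library of both lines. The KNOX gene with the most reads in these organs, Os06g0646600, did not pass and was at 465 ± 26.3 CPM in HJX and 445 ± 5.54 in HPS32 (log2 -0.06 ± 0.07, adjusted p = 0.928). Of 37 tested histone genes 0 passed with edgeR, DESeq2 or limma-voom and 2 had an unadjusted p under 0.05 (median log2 -0.106, 33 lower and 4 higher). Of 97 genes for cyclins, kinesins and replication 0 passed with any of these tools and 1 had an unadjusted p under 0.05 (median -0.048). Over all genes the median was 0.004, and 6.54% had an unadjusted p under 0.05, beside 5.41% of the histone genes and 1.03% of the cyclin list. LSI1 (Os02g0745100), a silicon channel of roots, was at 10.3 ± 3.27 and 9.92 ± 1.499 CPM (log2 -0.06 ± 0.24, adjusted p = 0.992), and LSI2 had 1 read in all.

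**Figure D2:**
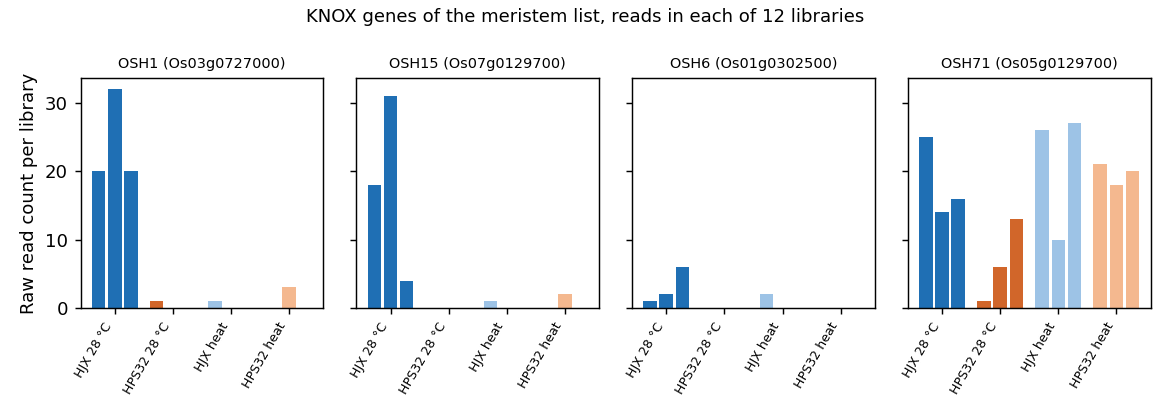
Raw read counts of the 4 KNOX genes of the meristem list in each of the 12 libraries, 3 bars per group. OSH1 and OSH15 were read in the 3 NIL-TT2HJX libraries at 28 °C and hardly elsewhere, while OSH71 was read in all groups, with 1 to 13 reads in NIL-TT2HPS32 at 28 °C.

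The line difference under heat was not used to choose the 22 genes. The libraries under heat did enter the filter, the scaling and the estimate of the spread on which these calls rest. In a fit of the 6 libraries at 28 °C alone 10 of the 22 passed. The comparison under heat shares that estimate, so it is not a fully separate reading. Under heat 45.2% of all tested genes passed between the lines, 21.6% higher and 23.6% lower in HPS32. Of the 11 genes higher at 28 °C, 8 were called higher under heat, and of the 11 lower, 5 were called lower. In 2 genes the call under heat had the other direction: Os11g0191300 and the unannotated transcript of chromosome 5. The remaining 7 did not pass under heat. The groups under heat and the groups at 28 °C share no library, but they share the plant lines.

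The difference of the lines changed between 28 °C and heat in 9 of the 22 genes (interaction, adjusted p under 0.05), beside 29.3% of all tested genes. The transcript of chromosome 5 turned most clearly, from 14.05 ± 1.43 against 8.01 ± 0.808 CPM at 28 °C (HJX against HPS32) to 5.79 ± 0.912 against 9.73 ± 0.615 under heat. Os11g0191300 went from 31.9 ± 0.686 against 42.8 ± 2.20 CPM to 43.2 ± 1.81 against 37.6 ± 1.34. Values under heat are relative to the TMM scaling. With total-count scaling the median line difference of all genes under heat was 0.285 in place of 0.027 on the log2 scale, and at 28 °C it was 0 in place of 0.004, and this shift is larger than the heat difference of Os11g0191300 (log2 -0.20 ± 0.07).

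**Figure D3:**
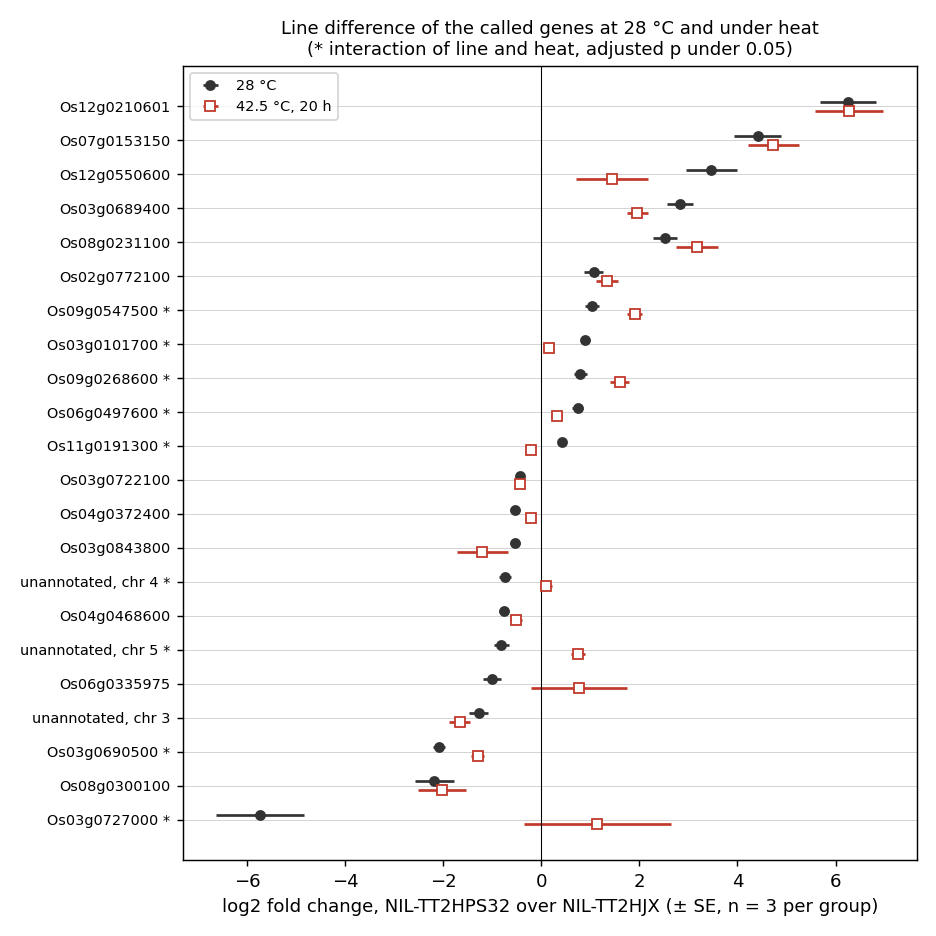
log2 fold change of NIL-TT2HPS32 over NIL-TT2HJX with its SE for each of the 22 genes, at 28 °C (filled circles) and at 42.5 °C for 20 h (open squares), 3 libraries per group; an asterisk marks an interaction with an adjusted p under 0.05. Of the 11 genes higher at 28 °C, 10 had a positive value under heat, and of the 11 lower genes 7 had a negative one.

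The 22 genes were spread over the genome, with more of them on chromosome 3. It held 7 of them among 3344 tested genes (0.209%), beside 0.0864% over all chromosomes, and chromosomes 1 and 10 held 0. Of the 1 Mb windows with at least 10 tested genes, 377 in all, 20 held a call and 2 held more than 1: 27 to 28 Mb and 29 to 30 Mb of chromosome 3. The first holds Os03g0690500 and Os03g0689400, and 18 of its 89 tested genes (20.2%) had an unadjusted p under 0.05, a share above which only 1 other window lay. Among them was another NB-ARC gene, Os03g0689688, at 0.947, 1.57 and 0.868 CPM in HJX and 1.98, 3.70 and 2.82 CPM in HPS32 (log2 1.31 ± 0.32, adjusted p = 0.259). The second window holds Os03g0722100 and OSH1. From 27 to 30 Mb, 4 of 281 tested genes passed and 36 (12.8%) had an unadjusted p under 0.05, beside 6.54% of all genes. These counts include the called genes. The window between the 2, from 28 to 29 Mb, held 0 calls in 102 tested genes, and 9 of them (8.82%) had an unadjusted p under 0.05.

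TT2 itself (Os03g0407400, chromosome 3, 16729501 to 16735109) lies 10.79 to 12.87 Mb from these 4 genes, measured between gene starts. Within 5 Mb of TT2, 1 of 593 tested genes passed, the retrotransposon-like transcript of chromosome 3. There 47 genes (7.93%) had an unadjusted p under 0.05, beside 6.54% of all genes. With the replicate block 5 of the 593 genes passed, beside 66 of all 25473 tested genes (0.259%). The nearest, Os03g0407050, with a von Willebrand factor type A domain, starts at 16696508. It was at 111, 155 and 141 CPM in HJX and 160, 188 and 184 CPM in HPS32 (blocked log2 0.39 ± 0.07, adjusted p = 0.00808, and 0.321 without the block).

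**Figure D4:**
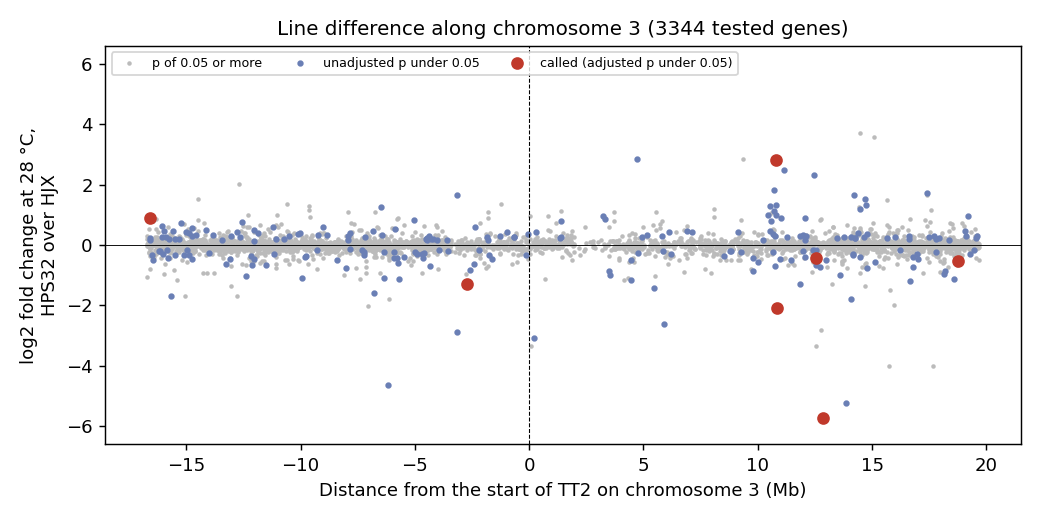
log2 fold change at 28 °C of each of the 3344 tested genes of chromosome 3, NIL-TT2HPS32 over NIL-TT2HJX, against the distance of the gene from the start of TT2 in Mb; large points passed the test and medium points had an unadjusted p under 0.05. The 7 genes that passed include 4 between 10.79 and 12.87 Mb from TT2 and 1 within 5 Mb of it.

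TT2 had 0, 6 and 3 reads in HJX and 5, 1 and 1 in HPS32, too few for a test, so the reads do not check the genotype labels. The 6 other G protein subunits were tested, and 0 passed with edgeR, DESeq2 or limma-voom or had an unadjusted p under 0.05. The alpha subunit RGA1 (Os05g0333200) was at 56.2 ± 4.48 CPM in HJX and 58.8 ± 3.09 in HPS32, and the beta subunit RGB1 (Os03g0669200) at 71.6 ± 5.88 and 69.2 ± 4.98. Among the other gamma subunits, RGG2 (Os02g0137800) was at 45.1 ± 1.17 and 45.6 ± 1.42 CPM and DEP1 (Os09g0441900) at 16.8 ± 6.004 and 15.1 ± 5.08. RGG1 (Os03g0635100) and GGC2 (Os08g0456600) were read at 2.02 to 3.17 CPM on average in either line. The log2 differences of the 6 lay between -0.17 and 0.30, with adjusted p of 0.891 to 0.995. WR1 (Os02g0202000) and WR2 (Os06g0604000), AP2 factors known to control wax synthesis in rice, differed by -0.17 ± 0.24 and -0.07 ± 0.11 (adjusted p = 0.952 and 0.959).

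The circadian clock genes, whose levels follow the time of day, served to compare the time of sampling. Of the 10 tested, 0 passed with edgeR, DESeq2 or limma-voom, and 0 had an unadjusted p under 0.05. The morning factor LHY (Os08g0157600) was at 430 ± 41.6 CPM in HJX and 414 ± 41.1 in HPS32, and GIGANTEA (Os01g0182600), an evening gene, at 1766 ± 51.9 and 1784 ± 70.7 CPM. The pseudo-response regulators PRR1 (Os02g0618200), PRR73 (Os03g0284100), PRR37 (Os07g0695100), PRR95 (Os09g0532400) and PRR59 (Os11g0157600) differed by -0.03 to 0.05 on the log2 scale. ELF3-1 (Os06g0142600), LUX (Os01g0971800) and FKF1 (Os11g0547000) differed by -0.09, 0.02 and -0.03.

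Gene groups were described by counts, with no test of a group. Over all tested genes 0.0864% passed and 6.54% had an unadjusted p under 0.05. Of 49 lists, 44 had at least 10 tested genes, and in 42 of these 0 genes passed. The NB-ARC list had 1 call in 255 tested genes, Os03g0689400, and 16 (6.27%) had an unadjusted p under 0.05. Its median was -0.054, with 150 members lower and 105 higher. Transcripts without annotation had 3 calls, all lower, among 1281. Of 64 genes of the photosynthetic light reactions 0 passed and 3 had an unadjusted p under 0.05 (median log2 0.045). The same counts were 0 and 4 of 29 small heat shock proteins, which hold unfolding proteins (median 0.066), 0 and 3 of 23 heat stress transcription factors (median 0.028), and 0 and 1 of 35 wax and cuticle genes (median -0.017). Of 70 WRKY factors, which regulate defence genes, 0 passed and 3 had an unadjusted p under 0.05, with 52 lower and 18 higher in HPS32 (median -0.129). DESeq2 and limma-voom also called 0 genes in each of these 5 lists. Their shares at an unadjusted p under 0.05 were, in the order given, 4.69%, 13.8%, 13%, 2.86% and 4.29%.

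The lowest median of the 44 lists was that of the terpene synthases, which make volatile and defensive compounds: -0.483 over 21 tested genes. None of them passed with edgeR, DESeq2 or limma-voom, and 6 had an unadjusted p under 0.05 (28.6% beside 6.54% of all genes), all lower in HPS32. They were named after their values were seen. An unannotated member on chromosome 4 that starts at 16213635 was at 50.3, 66.0 and 66.6 CPM in HJX and 36.3, 45.2 and 49.4 CPM in HPS32, and it passed with the replicate block (blocked log2 -0.48 ± 0.09, adjusted p = 0.0147, and 0.381 without). Os04g0178300 and Os04g0344100 were at log2 -1.19 ± 0.37 and -1.55 ± 0.48 (adjusted p = 0.603 and 0.578). Neighbours are among the 6. Os04g0178300 and Os04g0179700 start at 5318060 and 5428347 of chromosome 4. Os04g0341500 and Os04g0344100 start at 16151639 and 16349941, on either side of the unannotated member. Whether such neighbours vary separately was not tested. The highest median was that of chlorophyll synthesis, 0.148 over 11 genes, with 10 of them higher, 0 passed and 2 at an unadjusted p under 0.05.

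The replicate numbers ran through the 28 °C libraries of both lines. The first principal component of these 6 libraries, 32.8% of their variance, separated them by replicate number in each line, and the second, 20.0%, separated the lines. Over 20255 better-read genes, the deviations of same-numbered libraries from their group means correlated for replicates 1 and 3 (r = 0.448 and 0.422). For replicate 2 the correlation was weak (r = 0.12), near the 0.0783 of HJX replicate 3 with HPS32 replicate 2. On the first component replicate 2 lay at -7.898 in HJX and at 8.002 in HPS32. The labels do not say what the numbers share. With the number as a block, 44 genes passed that did not pass without it, 29 higher and 15 lower in HPS32. All 44 moved one way in each of the 3 pairs of same-numbered libraries, which the block favours. In 29 of the 44 the same replicate number was highest and the same lowest in both lines. The block favours such genes too, and the share of all tested genes with a common order was not counted. Of the 44, 14 have no description, 4 are unannotated and 7 lie on chromosome 3, which holds 3344 of the 25473 tested genes.

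A pair of iron transporters and 1 regulator showed this pattern, and were named after their values were seen. Os02g0649900 encodes YSL2, an oligopeptide-type transporter that carries iron and manganese bound to nicotianamine. It was at 234, 153 and 87.8 CPM in HJX replicates 1, 2 and 3 and at 518, 298 and 147 CPM in HPS32 replicates 1, 2 and 3. The lines overlapped, yet HPS32 was higher within every number (blocked log2 0.96 ± 0.08, adjusted p = 2.96e-06, and 0.78 without the block). The metal transporter NRAMP1 (Os07g0258400) was at 49.9, 29.8 and 17.1 CPM in HJX and 136, 74.3 and 31.1 CPM in HPS32 (blocked log2 1.24 ± 0.11, adjusted p = 4.04e-06, and 0.742 without). IRO2 (Os01g0952800), a bHLH factor of the iron deficiency response, had the same pattern, at 154, 108 and 55.7 against 334, 201 and 86.4 CPM, and did not pass (blocked log2 0.89 ± 0.15, adjusted p = 0.0787).

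Not every iron gene shared it. The transporter Os02g0650300, of the same family as YSL2, was at 1.31, 2.81 and 0.868 CPM in HJX and 6.67, 1.57 and 0.564 CPM in HPS32, higher in HPS32 within 1 of 3 numbers (blocked adjusted p = 0.853). The ZIP-type transporter Os03g0667500 had 9, 11 and 4 reads in HJX and 4, 9 and 6 in HPS32, too few for a test. Of 94 tested genes of the iron and metal list, 1 passed with the block and 0 without, beside 0.259% and 0.0864% of all genes. YSL2 and NRAMP1 each passed with the block, so the list does not hold both of them. An unadjusted p under 0.05 was found for 10 of the 94 (10.6%, beside 6.54%), 3 higher and 7 lower in HPS32. The nicotianamine synthase Os03g0307300 was at 2.84, 7.64 and 0 CPM in HJX and 17.4, 1.85 and 0.211 CPM in HPS32, with no common pattern (blocked adjusted p = 0.943).

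Trehalose-phosphatases, which make the sugar trehalose from its phosphate, gave the 3 of the 19 tested genes of the trehalose list that passed with the block, beside 0.259% of all genes, and these 3 were higher in HPS32. The list as a whole had 10 members higher and 9 lower (median log2 0.001). The 3 members with an unadjusted p under 0.05 without the block were lower: Os09g0397300 (log2 -0.21 ± 0.09), Os01g0749400 (-0.21 ± 0.07) and Os05g0517200 (-0.20 ± 0.07), with adjusted p of 0.61 to 0.74. Os05g0128900 was at 59.6, 33.4 and 20.1 CPM in HJX and 136, 74.6 and 29.3 CPM in HPS32 (blocked log2 1.00 ± 0.14, adjusted p = 0.00622, and 0.814 without). Os05g0153500 and Os12g0505800 had blocked log2 differences of 0.68 ± 0.12 and 0.99 ± 0.19 (adjusted p = 0.0116 and 0.0265). Replicate 1 was the highest and replicate 3 the lowest in both lines for the 3 higher genes.

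Further genes passed with the block. Os09g0478300, of the cellulose synthase type, was at 56.5, 43.1 and 38.0 CPM in HJX and 73.4, 63.0 and 62.2 CPM in HPS32 (blocked log2 0.54 ± 0.08, adjusted p = 0.00371). Os03g0850400, of the amino acid kinase family, was at 137, 114 and 108 CPM in HJX and 170, 162 and 160 CPM in HPS32, without overlap (blocked log2 0.46 ± 0.08, adjusted p = 0.007, and 0.0933 without).

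Genes that fell with the block included the class III peroxidase Os04g0689000, at 8.08, 8.62 and 13.9 CPM in HJX and 3.73, 5.62 and 5.28 CPM in HPS32 (blocked log2 -1.04 ± 0.19, adjusted p = 0.0147). The family 17 glycosyl hydrolase Os05g0375400, of the type that cuts wall glucans, was at 531, 632 and 734 CPM in HJX and 387, 544 and 577 CPM in HPS32 (blocked log2 -0.34 ± 0.07, adjusted p = 0.0308). The cytochrome P450 Os03g0225900 (blocked log2 -0.53 ± 0.09) and the asparaginase Os04g0650700 (-0.43 ± 0.09), which frees nitrogen from asparagine, fell as well. Under heat 14 of the 44 were called in the same direction, 7 in the other, and 23 did not pass, beside the 45.2% of all genes called under heat.

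**Figure D5:**
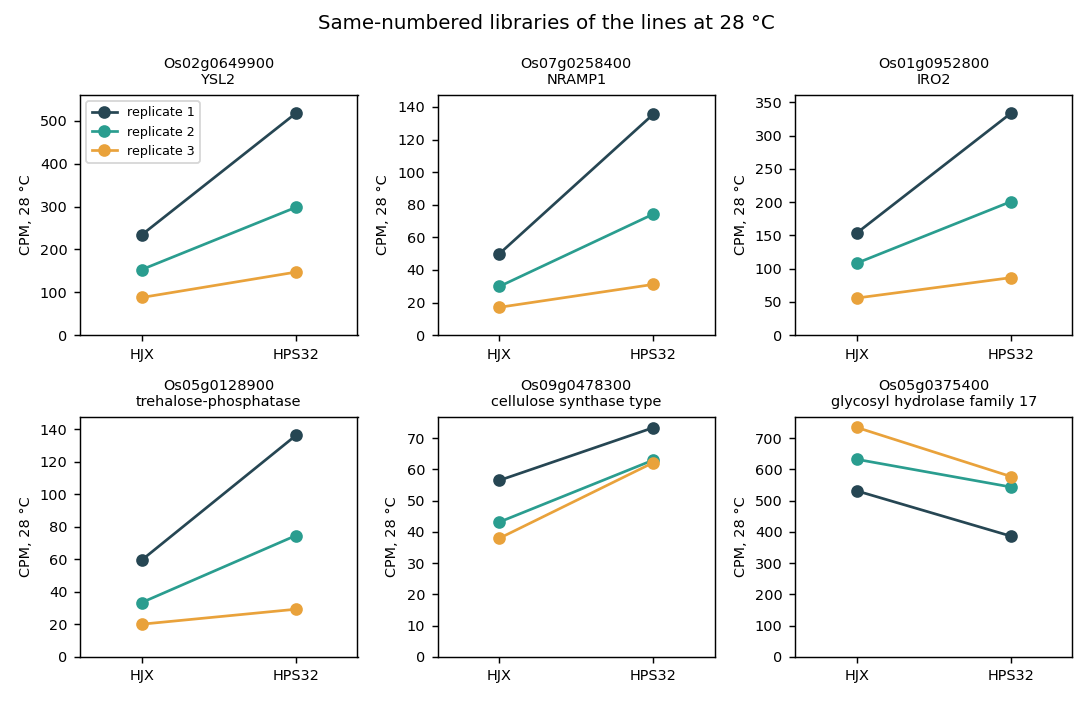
TMM-scaled CPM of 6 genes in the 28 °C libraries of each line; a line joins the libraries with the same replicate number. In the upper panels the iron genes YSL2, NRAMP1 and IRO2 overlap between the lines but are higher in NIL-TT2HPS32 within each number, and Os05g0375400 at the lower right is lower within each number.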

How the data were processed

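RNA was sequenced from aerial organs, with 3 libraries per group. Per the submitters' processing notes, HISAT2 2.0.5 aligned the reads and featureCounts 1.5.0-p3 counted them, and the authors deposited these raw counts per gene and library. The authors also deposited FPKM values, used here only for levels per transcript length at 28 °C, and 6 FPKM columns of the libraries under heat were not used. For the lines at 28 °C they deposited a log2 fold change and p-values with adjusted p-values, for which the notes name DESeq2 1.20.0. The genome build and annotation are not given in the sources used here. Genes are named by identifier, and symbols come from general knowledge where the deposited domain fitted.

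The deposited counts went through edgeR 4.0.16 (R 4.3.3): filterByExpr on the 4 groups, TMM scaling, 1 mean per group fitted to all 12 libraries, and a two-sided quasi-likelihood F test with robust dispersion and Benjamini-Hochberg adjustment over 25473 genes and a threshold of 0.05. The SE is the size of the log2 fold change divided by the square root of F. CPM are TMM-scaled. The alternatives changed the scaling (RLE, total counts), the filter (none, or a minimum CPM of 1 in 3 libraries) or the test (DESeq2 1.42.0, limma-voom with limma 3.58.1), used the 6 libraries alone or a replicate block, or left out each 28 °C library. The procedure was tested on simulated data, where 12 unchanged genes were called (6.9% of calls). More genes were changed there than passed in these lines, so this share may not hold for them. The tested genes held 99.92% to 99.93% of the reads of each 28 °C library.

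The replicate numbers were checked for pairing. In 20255 genes whose average log2 CPM reached 1, deviations of same-numbered libraries of the lines correlated with r = 0.448, 0.12 and 0.422, and those with different numbers with -0.452 to 0.0783. Over every tested gene r was 0.289, 0.0756 and 0.275 for same numbers. Every r of the first set is over 0.1, so the numbers were taken to pair the libraries. No label states this pairing, which was read from the data.

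Named genes were the 12 largest rises and 12 largest falls among called genes with a mean log2 CPM of at least 1, a description and no overlap between the lines, the 6 called genes with the largest difference in CPM, the called members of lists and windows described, and the G protein, wax and clock genes whatever their values. The members of the comparison and the gene lists were chosen with earlier results of these data known. The lists follow domain wording or identifiers. The column numbers of the libraries under heat were not tied to replicate numbers. Intervals and floors cover counting error only.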

Additional observations from a re-analysis of the deposited data

Results flagged for a closer look

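In 13 of the 42 tested genes that were examined for it, the 22 that passed at 28 °C and the genes reported whatever their values, the line difference under heat differed from that at 28 °C by the interaction test of edgeR (log2 of the difference under heat minus that at 28 °C, 3 libraries per group, Benjamini-Hochberg adjusted over all tested genes). Of these, 9 passed between the lines at 28 °C. The values were 0.88 ± 0.21 SE for Os09g0547500 (adjusted p = 0.00413), -0.74 ± 0.12 for Os03g0101700 (0.000155), 0.80 ± 0.23 for Os09g0268600 (0.0135) and 0.79 ± 0.18 for Os03g0690500 (0.00318). They were -0.62 ± 0.10 for Os11g0191300 (0.000191), 0.83 ± 0.17 for the unannotated transcript of chromosome 4 (0.00127) and 1.56 ± 0.21 for that of chromosome 5 (1.66e-05). Os06g0497600, at -0.42 ± 0.16 (0.048), lost this call in 11 alternatives, with adjusted p of 0.0373 to 0.472 over all of them, among them each fit that left out 1 library. Os09g0268600 lost it with limma-voom (0.0782). OSH1 (Os03g0727000), at 6.88 ± 2.09 (0.0183), rests on groups with 0 to 3 reads per library, so the size of this value depends on the prior count of the fit.

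The other 4 genes did not pass at 28 °C. RGG2 (Os02g0137800), a gamma subunit of the G protein, was at -0.33 ± 0.12 (0.0485). With total-count scaling the median line difference of all genes under heat was 0.285 in place of 0.027. That shift is of similar size to the value of RGG2, which therefore depends on the scaling. No alternative was run for the interaction of these 4 genes. The clock regulators PRR37 (Os07g0695100), PRR95 (Os09g0532400) and PRR59 (Os11g0157600) were at 1.17 ± 0.14 (6.66e-06), -0.68 ± 0.11 (8.65e-05) and -1.04 ± 0.10 (4.42e-07). The share of the examined genes, 31%, is near the 29.3% of all tested genes with an interaction under 0.05, so it is no result about these genes as a set. Whether any of these differences follows from the TT2 allele was not tested.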

How the results depend on the processing

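The number of genes that passed between the lines at 28 °C, 22, became 48 with DESeq2, 13 with limma-voom, 12 in a fit of the 6 libraries alone, 66 with the replicate block, 79 with the block in the 6 libraries alone, and 12 with a minimum of 2-fold. Leaving out each library gave 8 to 26, with 8 without HPS32 replicate 2 and 13 without HPS32 replicate 3. In each of these 6 fits 8 to 15 of the 22 were called. Of the 22, DESeq2 kept 22, limma-voom 13, the 6 libraries alone 10, RLE scaling 21, total counts 19, no filter 21 and the stricter filter 21. The 11 genes higher in HPS32 became 17 without a filter, 25 with DESeq2, 6 in the 6 libraries alone, 40 with the block, 36 with the block in the 6 libraries and 7 with 2-fold, and 6 to 13 with a library left out. The 11 lower became 23, 5 with limma-voom, 6, 26, 43 and 5, in that order with DESeq2 first, and 2 to 14 with a library left out. The 13 genes called in the same direction under heat became 24 with DESeq2 and 36 with the block, and 7 to 15 with a library left out. The 9 with an interaction became 14 without a filter, 22 with DESeq2, 5 with limma-voom and 38 with the block, and 3 to 15 with a library left out. The cause was not tested. Alternatives were run at 28 °C for 40 genes (the 22 and 18 reported whatever their values) and for the interaction of the 22. No value that passed in the main fit changed direction, and none passed in the other direction in an alternative. For values that passed in neither fit a change of direction was not counted. They were not run for single genes under heat or for the genes called with the block alone. For the lines at 28 °C, 514 values of these genes stayed on their side of the threshold and 86 lost their call, and 528 medians of lists moved by less than the spread between replicate pairs and 70 by more. The block lost the call of 0 of the 22 in the fit of all libraries, and that of Os11g0191300 in the 6 libraries alone. The authors' deposited test, set beside after the data were seen, does not call Os12g0210601, Os11g0191300 and Os04g0372400 (adjusted p = 0.144, 0.172 and 0.192). At 3 libraries per line, 70% of simulated 2-fold changes were recovered in genes above a minimum expected count. More genes were changed there than passed in these lines. OSH15, OSH6 and TT2, with a few reads per library, were below the depth of a test.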

Other observations

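No gene had 0 reads in all 3 libraries of one line at 28 °C and at least 10 in each library of the other. With a minimum of 3 reads, set after the data were seen, 4 genes did, and 0 of them had enough reads for a test. Besides OSH15, the chitin recognition protein Os04g0173800 had 3, 11 and 21 reads in HJX and 0, 0 and 0 in HPS32, and under heat 2, 1 and 1 against 0, 0 and 0. The chaperonin of the 10 kDa class Os06g0197550 had 3, 5 and 5 reads in HJX and 0, 0 and 0 in HPS32, and under heat 3, 1 and 1 against 0, 1 and 1. Os01g0837700, with no description, had 0, 0 and 0 reads in HJX and 6, 4 and 4 in HPS32, and under heat 4, 0 and 1 against 0, 0 and 3.

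Late embryogenesis abundant proteins and dehydrins protect cells that dry out. Of 64 tested members 0 passed with edgeR, DESeq2 or limma-voom, 45 were higher and 19 lower (median log2 0.108, beside 0.004 over all genes), and 7 had an unadjusted p under 0.05 (10.9%, beside 6.54% of all genes), 6 of them higher. Os11g0454200 was at log2 0.47 ± 0.19 (adjusted p = 0.738) and Os11g0453900 at 0.38 ± 0.16 (adjusted p = 0.74). Of 107 tested auxin response genes 0 passed with any of these tools and 8 had an unadjusted p under 0.05 (7.48%, beside 6.54% of all genes), with 66 members lower and 41 higher (median -0.05). Of 74 bHLH factors 0 passed, and 8 had an unadjusted p under 0.05 (10.8%, beside 6.54%), all lower.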
